A study of Mus musculus with 6 samples.

Results

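The genes described here encode 10 adhesion molecules that endothelium uses to hold circulating leukocytes and let them through the vessel wall: the immunoglobulin family members Vcam1, Icam1, Icam2 and Madcam1, the selectins Sele and Selp, and the junctional molecules F11r, Jam2, Jam3 and Cd99l2. Members were the rows of the gene count table that carried these symbols, and all 10 were found among 55335 rows. RNA sequencing had been run on the aorta of 6 WT mice of the strain the labels call c57b6l. The methods of the study describe the mice as male and the fat around the aorta as dissected. The young group was 3 mice of 6 weeks and the aged group 3 mice of 6 months, taken as 1 library for each mouse. There was no treatment, transgene or deletion in either group. The comparison asks how expression in the aorta differed with age, and the oldest mice in it were 6 months old. Whole aorta was sequenced, so each value sums over every cell type of the vessel, and fewer cells of a type cannot be told apart from less RNA per cell.

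Leukocytes leave the blood in steps. Selectins on activated endothelium catch sugar-bearing ligands on the passing cell and make it roll, ICAM-1, ICAM-2, VCAM-1 and MAdCAM-1 then bind leukocyte integrins and arrest it, and junctional adhesion molecules with CD99-like proteins serve its passage between endothelial cells. Several of these molecules are not exclusive to endothelium: ICAM-1 and VCAM-1 are also made by stromal cells and leukocytes, P-selectin by platelets, and the JAM and CD99L2 proteins by many cell types. VCAM-1, ICAM-1 and E-selectin are textbook genes of the endothelial response to inflammatory cytokines through NF-kappa B.

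The libraries held 31049632 to 45832185 counts, and 20772 to 22684 genes had at least 1 count. Levels below are CPM, the counts of a gene scaled to a common library size by TMM (trimmed mean of M values), and a count of 0 allows a level of up to 0.0619 to 0.106 CPM, for counting error only. Some libraries stood apart from their group. Young replicate 1 held Xist at 305.3 CPM against at most 0.636 elsewhere, and Ddx3y at 1.09 CPM against 44.7 to 65.6, which goes against the male sex given in the methods. Aged replicate 2 held the brown fat gene Ucp1 at 1421 CPM against 45.1 to 360.3. The 8 adipocyte markers, Ucp1 among them, summed to 538 to 2090 CPM in young and 789 to 3710 CPM in aged libraries. Transcripts of these markers were thus counted in every library, although the methods describe dissection of the fat. In aged replicate 3 the summed level of 14 endothelial markers was 2102 CPM, against 568 to 746 in the other 5 libraries. Reads of the mitochondrial genome made up 14.9% to 21.2% of young and 23.1% to 30.4% of aged libraries.

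Of the 10 members, 9 had enough counts to be tested, and none passed an adjusted p of 0.05 in the quasi-likelihood F test of edgeR (Benjamini-Hochberg over all genes). The same test called 0 of 16612 genes (percent called 0), with 1723 at an unadjusted p below 0.05. DESeq2 called 338 genes, 1.48% of those given an adjusted p as higher and 0.782% as lower, and 0 of the 9 members, and limma on FPKM called none. Below an unadjusted p of 0.05 in edgeR stood 3 of the 9 members, Vcam1, Icam1 and Icam2, all higher in aged aorta, where 5.56% of all genes tested stood on that side. No member stood below it on the lower side, against 4.82% of all genes. The count of 3 turned on single libraries: it was 1, Vcam1, without aged replicate 3, and 5 without aged replicate 2. It was 2, Vcam1 and Icam1, without any 1 of the young libraries, and 2 with a robust fit or a replicate block. DESeq2 gave 5 where limma on FPKM gave 0. The log2 fold change of aged over young was above 0 for 7 of 9 members with a median of 0.84, against a median of 0.02 over all genes, of which 52.1% were above 0.

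**Figure D1:**
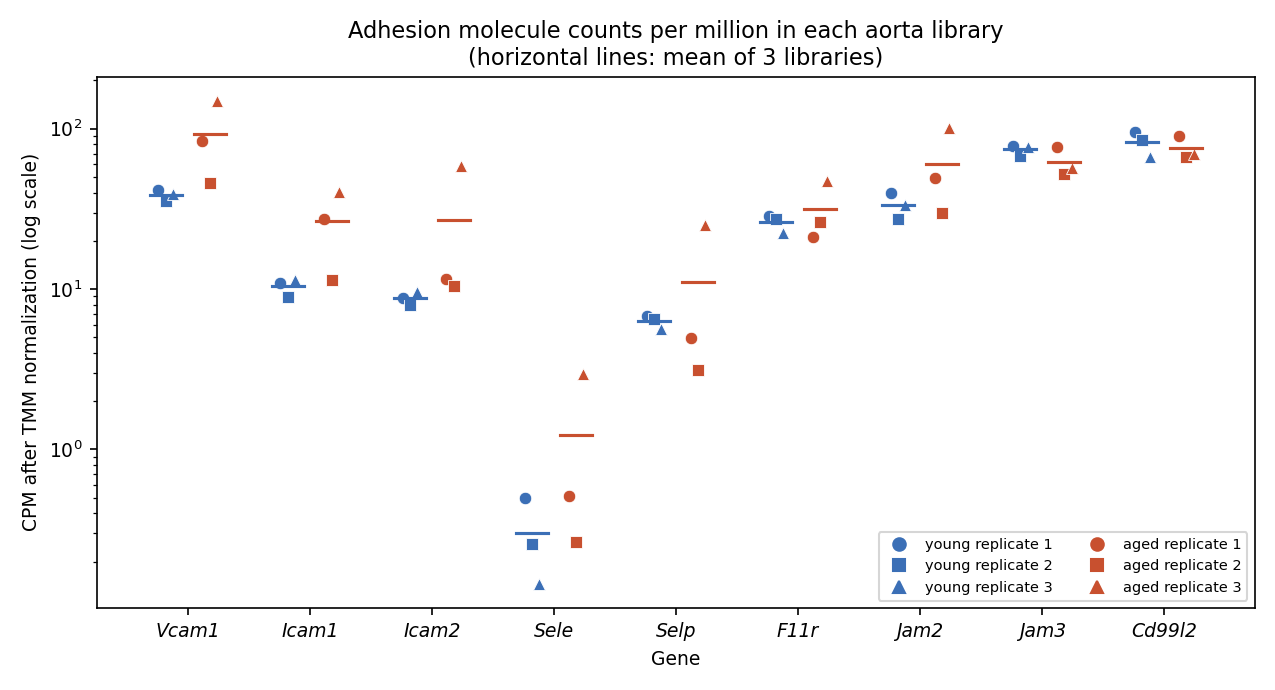
Level of each tested member in each library, in TMM-scaled CPM on a logarithmic axis, with young and aged mice as separate points and the group mean as a bar. Vcam1 and Icam2 are the 2 members whose aged points all lie above the young points, and aged replicate 3 holds the highest value of Vcam1, Icam1, Icam2, Sele, Selp, F11r and Jam2.

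Vcam1, the ligand of leukocyte VLA-4 integrin, lies at chromosome 3 from 116109949 to 116129688 on the minus strand (GRCm38, GENCODE M21, which gives the positions of all members here). Its level was 41.5, 35.6 and 39.0 CPM in young replicates 1, 2 and 3, and 83.4, 45.6 and 148.9 CPM in aged replicates 1, 2 and 3. All aged libraries stood above all young ones, with aged replicate 2 close to the young range and aged replicate 3 highest. The means were 38.7 ± 2.96 CPM (SD, n = 3) and 92.6 ± 52.3 CPM (SD, n = 3), so most of the spread lay within the aged group. The log2 fold change was 1.26 (SE 0.39), with an edgeR p of 0.0139 and an adjusted p of 0.390. Without aged replicate 3 it was 0.74, still with an unadjusted edgeR p below 0.05, at 0.0349.

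Icam1, the ligand of leukocyte LFA-1 and Mac-1, lies at chromosome 9 from 21015985 to 21028817 on the plus strand. Its young libraries held 10.9, 8.99 and 11.4 CPM and its aged libraries 27.5, 11.4 and 40.3 CPM. Aged replicates 1 and 3 were above every young library, while aged replicate 2 lay inside the young range, so the groups overlapped. Means were 10.5 ± 1.29 and 26.4 ± 14.5 CPM (SD, n = 3 each), and the log2 fold change was 1.34 (SE 0.42, edgeR p 0.0148, adjusted p 0.390). Icam1 was the only member to pass an adjusted threshold in any leave-one-out fit: without aged replicate 2 its log2 fold change was 1.70 with an edgeR adjusted p of 0.0437, and without aged replicate 3 it was 0.90. An antisense gene on the opposite strand, Gm47079, overlaps its exons and held 0 to 15 counts, and whether counting used strand is not given in the sources used here.

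Vcam1 and Icam1 kept nearly one proportion to each other across the libraries. Per length, in FPKM, fragments per kilobase scaled to library size, Vcam1 stood at 1.49 to 1.97 times Icam1 in the 6 libraries. The SD of that log2 ratio, 0.15, was the smallest of the 36 pairs of tested members, which is a description picked out after the values were seen. At the other end, the log2 ratio of Sele to Jam3 had an SD of 1.56.

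Icam2, which resting endothelium carries, lies at chromosome 11 from 106377656 to 106388075 on the minus strand. It was measured at 8.79, 7.93 and 9.55 CPM in the young and at 11.5, 10.5 and 58.7 CPM in the aged libraries. The groups did not overlap, but aged replicates 1 and 2 were within 2 CPM of the highest young library and aged replicate 3 stood far above both. Its means were 8.75 ± 0.812 and 26.9 ± 27.5 CPM (SD, n = 3 each), with a log2 fold change of 1.62 (SE 0.66, edgeR p 0.0421, adjusted p 0.465). Without aged replicate 3 the log2 fold change was 0.33, and with the replicate number as a block it was 1.11 with an unadjusted edgeR p of 0.0878. The unadjusted edgeR p was 0.0953, 0.102 and 0.0829 without young replicates 1, 2 and 3, and 0.0509 with a robust fit. Vcam1 and Icam2 were thus 2 of 9 tested members with every aged library above every young one, as were 7.74% of all genes tested, and 0 of 9 had every aged library below, as did 8.78% of all genes.

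Madcam1, the addressin of gut and lymphoid venules, lies at chromosome 10 from 79664559 to 79668537 on the plus strand. It had 3, 0 and 0 counts in young and 2, 0 and 0 counts in aged replicates 1, 2 and 3. It was below the filter on low counts and was not tested, and any difference between the ages was not detectable at this depth.

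The genes of E-selectin and P-selectin both lie on chromosome 1. Sele spans 164048234 to 164057677 and Selp 164115264 to 164150026, both on the plus strand. Sele, which endothelium makes after cytokine stimulation, was near the lowest measurable level at 0.495, 0.258 and 0.146 CPM in young and 0.511, 0.265 and 2.93 CPM in aged libraries. These rest on 24, 9 and 5 counts in young and 17, 10 and 83 counts in aged replicates 1, 2 and 3, and aged replicate 3 was the one library outside the range of the others. The means were 0.3 ± 0.178 and 1.24 ± 1.48 CPM (SD, n = 3 each). Its log2 fold change was 2.0 (SE 0.99) with an edgeR adjusted p of 0.531, and 0.35 without aged replicate 3.

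Selp, stored in endothelial Weibel-Palade bodies and in platelet granules, stood at 6.76, 6.49 and 5.65 CPM in young and at 4.99, 3.12 and 25.3 CPM in aged libraries. Aged replicates 1 and 2 were below every young library and aged replicate 3 was above every one, so the aged mean of 11.1 ± 12.3 CPM, against 6.30 ± 0.582 CPM in young (SD, n = 3 each), lies far from every aged library. The log2 fold change was 0.82 (SE 0.72, edgeR adjusted p 0.703), and without aged replicate 3 its sign turned, to -0.63 (edgeR adjusted p 0.695). The level of 8 platelet markers summed to 188 to 223 CPM in young and 117 to 164 CPM in aged libraries, with 0 of 8 higher and 1 of 8, Itgb3, lower at an unadjusted edgeR p below 0.05, and none at 0 in every library. Most of that sum was Itgb3. The other 7 markers summed to 21.4, 64.2 and 59.6 CPM in young and 24.2, 28.1 and 58.4 CPM in aged replicates 1, 2 and 3. In aged replicate 3, the high library for Selp, 6 of 8 platelet markers were above the young mean, with a median fold of 1.20 and none above 2, against median folds of 0.276 and 0.590 in aged replicates 1 and 2. The part of platelets in the Selp values was not tested.

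The promoters of Icam1, Sele and Selp are shown because these genes stood at more than 2-fold of the young mean in aged replicate 3 and RefSeq entries were matched for them, as for 6 of the 10 members. Each is the 250 bases before the RefSeq start (GRCm38.p6), 5′ to 3′ on the plus strand, at chr9:21015690-21015939, chr1:164047984-164048233 and chr1:164115014-164115263. Capitals mark matches to the kappa B letters GGNNTTTCC, searched on both strands.
Icam1: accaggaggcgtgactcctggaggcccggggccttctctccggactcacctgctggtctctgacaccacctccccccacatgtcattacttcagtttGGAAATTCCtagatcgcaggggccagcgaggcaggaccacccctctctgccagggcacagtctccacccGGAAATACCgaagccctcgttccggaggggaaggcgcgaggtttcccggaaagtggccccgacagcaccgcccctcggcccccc
Sele: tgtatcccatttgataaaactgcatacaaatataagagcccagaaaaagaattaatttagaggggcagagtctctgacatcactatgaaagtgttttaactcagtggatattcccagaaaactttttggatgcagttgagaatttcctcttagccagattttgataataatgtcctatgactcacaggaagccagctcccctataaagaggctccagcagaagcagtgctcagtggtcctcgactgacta
Selp: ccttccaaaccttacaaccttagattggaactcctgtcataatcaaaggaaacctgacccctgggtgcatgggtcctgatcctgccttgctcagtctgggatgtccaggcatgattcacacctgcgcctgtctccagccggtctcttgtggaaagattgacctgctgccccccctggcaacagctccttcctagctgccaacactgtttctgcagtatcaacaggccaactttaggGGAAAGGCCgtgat
The letters matched 2 times in Icam1, starting 153 and 84 bases before the start, 1 time in Selp, at 14 bases, and 0 times in Sele. Only this 1 form of the kappa B letters was searched, so 0 matches does not show that a promoter lacks other forms. Of the other matched promoters, Madcam1, with few or no counts in any library, had 2 matches, at 83 and 70 bases, and F11r and Cd99l2 had 0. Of 32851 RefSeq promoters of the same length, 4.93% held a match. Sele had the TATA letters TATAAA 49 bases before its start, found in 12.4% of all promoters, and Icam1 had the GC box letters GGGCGG, found in 32.7%. The AP-1 letters TGANTCA were in Sele and Selp, at 73 and 139 bases, and in 6.75% of all promoters. No match overlapped another. GC content was 65.2% for Icam1, 40.4% for Sele and 53.6% for Selp. Matches are descriptions of letters in these windows, not binding sites.

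Among junctional members, Jam2, expressed by endothelium of many vessels and a partner of Jam3, lies at chromosome 16 from 84774123 to 84825928 on the plus strand. It was at 39.5, 27.3 and 33.4 CPM in young and 49.2, 29.9 and 100.6 CPM in aged libraries. Aged replicates 1 and 3 were above the young libraries and aged replicate 2 inside their range. The log2 fold change was 0.84 (SE 0.42) with an edgeR adjusted p of 0.533, and 0.24 without aged replicate 3.

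F11r, which encodes JAM-A of tight junctions and platelets, lies at chromosome 1 from 171437535 to 171464603 on the plus strand. Its levels were 28.6, 27.4 and 22.4 CPM in young and 21.1, 26.3 and 47.2 CPM in aged libraries. Aged replicate 1 was the lowest and aged replicate 3 the highest of the 6 libraries. Its log2 fold change was 0.27 (SE 0.30, edgeR adjusted p 0.768), and -0.14 without aged replicate 3.

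Jam3, which binds Mac-1 and is also made by smooth muscle, lies at chromosome 9 from 27097384 to 27155421 on the minus strand. Young libraries held 78.5, 68.1 and 76.7 CPM and aged libraries 77.2, 51.9 and 57 CPM. Aged replicates 2 and 3 lay below the young range and aged replicate 1 within it. The log2 fold change was -0.26 (SE 0.19) with an edgeR adjusted p of 0.644. The antisense gene Gm48796 overlaps Jam3 exons and held 115 to 366 counts against 1613 to 3805 for Jam3, and without knowledge of strand their reads cannot be told apart.

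Cd99l2, a CD99-like molecule that acts late in the passage of leukocytes through the wall, lies at chromosome X from 71420060 to 71492849 on the minus strand. It stood at 96.0, 85.4 and 67.0 CPM in young and 90.3, 66.7 and 69.1 CPM in aged libraries. The groups overlapped across nearly their whole range, and the log2 fold change was -0.14 (SE 0.20, edgeR adjusted p 0.825). With 1 library left out it ran from -0.29 without aged replicate 1 to -0.0087 without young replicate 1, the library with high Xist. Jam3 and Cd99l2, the most abundant members per length, were the tested members with a fold change below 0.

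**Figure D2:**
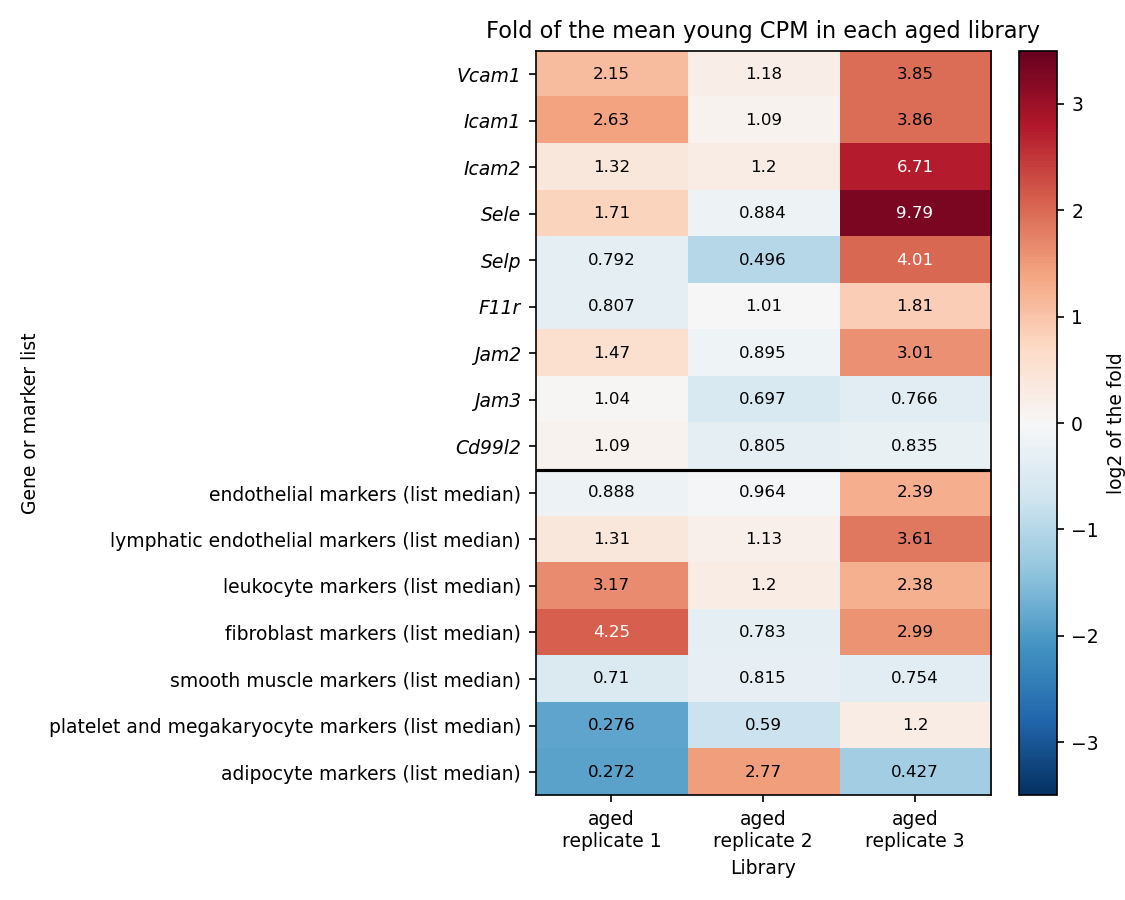
Level of each tested member in each aged library as a fold of the young mean, from TMM-scaled CPM, coloured on a log2 scale and printed in each cell. Aged replicate 3 holds folds of 3.01 to 9.79 for 6 members, and aged replicate 2 holds none above 1.2.

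Which members stood high differed from one aged library to the next. In aged replicate 3, 6 of 9 tested members (Vcam1, Icam1, Icam2, Sele, Selp and Jam2) exceeded 2 times the young mean, where 9.30% of 16608 genes did. In aged replicate 1 it was 2 of 9, Vcam1 and Icam1, against 7.40% of genes, and in aged replicate 2 it was 0 of 9 against 7.23%. Vcam1 and Icam1 were thus high in aged replicates 1 and 3, whereas Icam2, Sele and Selp were above 2 times the young mean in aged replicate 3 alone. Jam3 and Cd99l2 stood at 0.766 and 0.835 of the young mean in that library.

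Per length, the members spanned a wide range of levels. In young aorta the FPKM means ran from Jam3 at 22.7 and Cd99l2 at 16.5 through F11r at 9.57, Jam2 at 5.38, Icam2 at 4.48, Vcam1 at 4.25, Icam1 at 2.34 and Selp at 1.38 down to Sele at 0.0936 and Madcam1 at 0.0109. Neighbours in this order had ranges that overlapped over the 3 mice only for Jam2 with Icam2 and Icam2 with Vcam1. In aged aorta Jam3 at 16.3 and Cd99l2 at 12.9 again led the FPKM means, and Icam2 at 11.6, F11r at 9.84, Vcam1 at 8.65, Jam2 at 8.19, Icam1 at 5.02 and Selp at 2.06 followed, ahead of Sele at 0.343 and Madcam1 at 0.0103. There the ranges of all neighbours overlapped except for Sele with Madcam1, so the aged order is not resolved. Vcam1 per length was 0.715 to 0.889 of Jam2 in the young libraries and 1.01 to 1.15 in the aged ones. Such a gap was not particular to this pair. Icam1 was 0.383 to 0.474 of Jam2 in young and 0.528 to 0.774 in aged libraries, and further pairs of the 36 were also apart by age. These pairs were picked out after the values were seen.

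Endothelial markers moved with several members across the libraries. Of 14 markers, all tested, 1 (Emcn) was higher and 0 lower at an unadjusted edgeR p below 0.05. Over all genes tested those shares were 5.56% and 4.82%, the background for this list and every other list here. The summed level of the 14 markers was 626 to 746 CPM in young and 636, 568 and 2102 CPM in aged replicates 1, 2 and 3. Pecam1, the platelet and endothelial adhesion molecule, was at 181, 225 and 201 CPM in young and 178, 166 and 869 CPM in aged libraries. In aged replicate 3 all 14 markers were above the young mean, with a median fold of 2.39. There 7 of 14 exceeded 2 times the young mean, where 9.30% of all genes did, and Erg was at 1.08 of it. Across libraries the log2 ratio of a member to the mean of these markers varied least for F11r, with an SD of 0.22, and for Jam2, with an SD of 0.31. Vcam1 and Icam1 varied more against endothelial markers, with SDs of 0.48 and 0.61, than against leukocyte markers, with SDs of 0.35 and 0.37. For Vcam1 the SD against lymphatic endothelial markers was also 0.35, and for Icam1 that against fibroblast markers was 0.39. These SDs over the 6 libraries are descriptions, with no test.

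Set against the mean log2 CPM of the endothelial markers, the Vcam1 log2 ratio was 0.17, 0.27 and 0.62 in young and 1.47, 0.65 and 1.00 in aged libraries. All aged ratios lay above all young ones, with a difference of 0.69 and an exact permutation p of 0.1 (two-sided), the smallest that 3 against 3 mice allow. Vcam1 was the only one of 9 members with this order, which 1.45% of all genes showed, and 0 of 9 had the reverse, which 5.72% showed. The count was 2 without young replicate 1, 3 without young replicate 3 and 5 without aged replicate 2. For Icam1 the difference of the log2 ratio was 0.75 and for Icam2 it was 0.73, and for Sele it was 1.02, each with an exact permutation p of 0.2. F11r differed by -0.22, Selp by -0.19 and Jam2 by 0.27, Jam3 by -0.69 and Cd99l2 by -0.55, with groups that overlapped. The Jam3 log2 ratio was 1.08, 1.21 and 1.6 in young and 1.36, 0.83 and -0.38 in aged libraries, lowest in aged replicate 3.

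**Figure D3:**
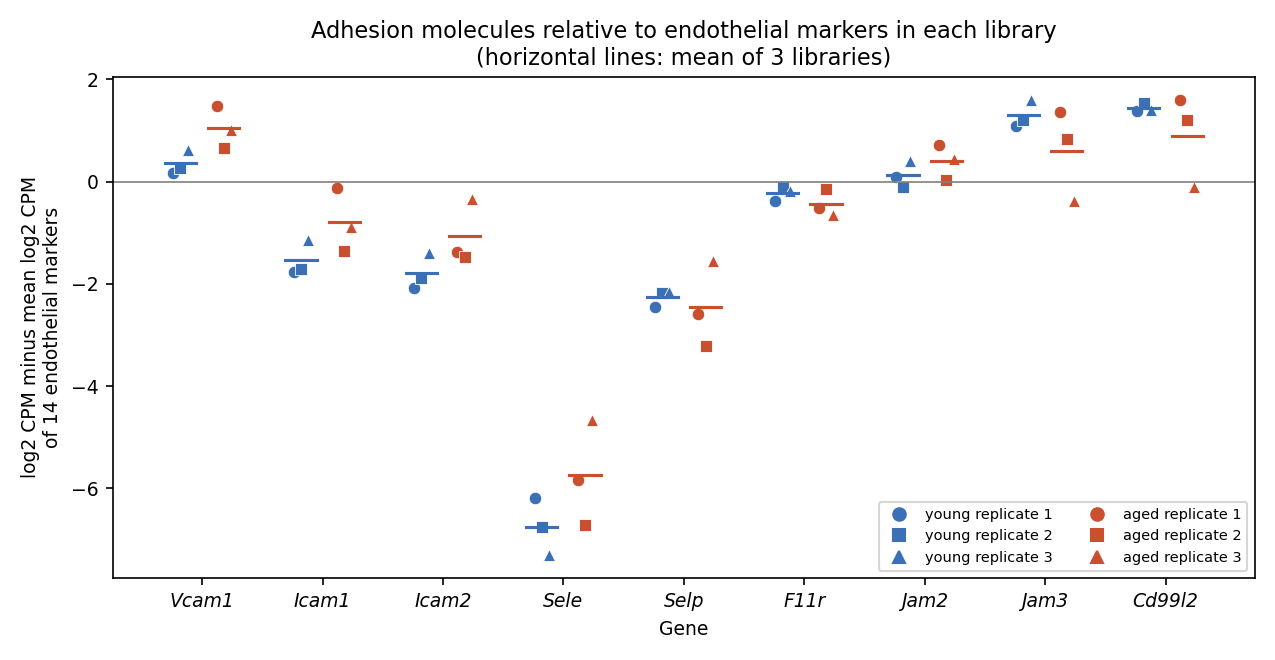
Log2 ratio of each tested member to the mean of 14 endothelial markers, by library, with young and aged mice as separate points. The Vcam1 points of the aged group, at 0.65 to 1.47, lie above its young points, at 0.17 to 0.62.

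Markers of other cell types moved with the same libraries. The 12 leukocyte markers, 11 of them tested, summed to 89.5 to 118 CPM in young and 383, 122 and 257 CPM in aged replicates 1, 2 and 3, with 7 higher and 0 lower at an unadjusted edgeR p below 0.05. The macrophage genes Mrc1 and Csf1r had the smallest p of this list, with log2 fold changes of 1.38 and 1.09, and Lyz2 and C1qa were its most abundant genes. The 8 fibroblast markers summed to 3752 to 5827 CPM in young and 10070, 3376 and 7335 CPM in aged libraries, with 5 higher and 0 lower. Aged replicates 1 and 3 were thus the high libraries for Vcam1, Icam1, leukocyte and fibroblast markers alike, and the part of these cells in the member values was not tested. Taken against the fibroblast markers in place of the endothelial ones, a reference added after the data were seen, the log2 ratio differed by 0.20 for Vcam1 (exact permutation p 0.8) and by 0.27 for Icam1 (exact permutation p 0.5), with groups that overlapped for both. Jam3 then had every aged ratio below every young one, with a difference of -1.18 (exact permutation p 0.1). Aged replicate 2, at -2.04, was barely below the lowest young ratio, -1.98. In aged replicates 1 and 3, 6 of 8 fibroblast markers themselves exceeded 2 times the young mean. The most abundant ones did not: Col1a1 was at 1.66 and 1.08 of it and Col1a2 at 1.29 and 0.92. The share of all genes with this order against fibroblast markers was not computed.

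The 6 lymphatic endothelial markers summed to 13.2 to 28.0 CPM in young and 55.9, 24.8 and 82.7 CPM in aged libraries, with Lyve1 and Pdpn higher at an unadjusted edgeR p below 0.05. The 8 smooth muscle markers summed to 32325 to 40247 CPM in young and 33367, 29166 and 28058 CPM in aged libraries, with 0 higher and 4 lower. Jam3 and Cd99l2 varied least against this list, with SDs of the log2 ratio of 0.27 and 0.36. The 6 mesothelial markers summed to 26.2 to 84.5 CPM in young and 11.4 to 83.5 CPM in aged libraries and the 8 adipocyte markers to 538 to 2090 and 789 to 3710 CPM. Of these, 1 mesothelial marker, Krt18, was lower at an unadjusted edgeR p below 0.05, and none of 8 adipocyte and none of 5 red blood cell markers was on either side.

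**Figure D4:**
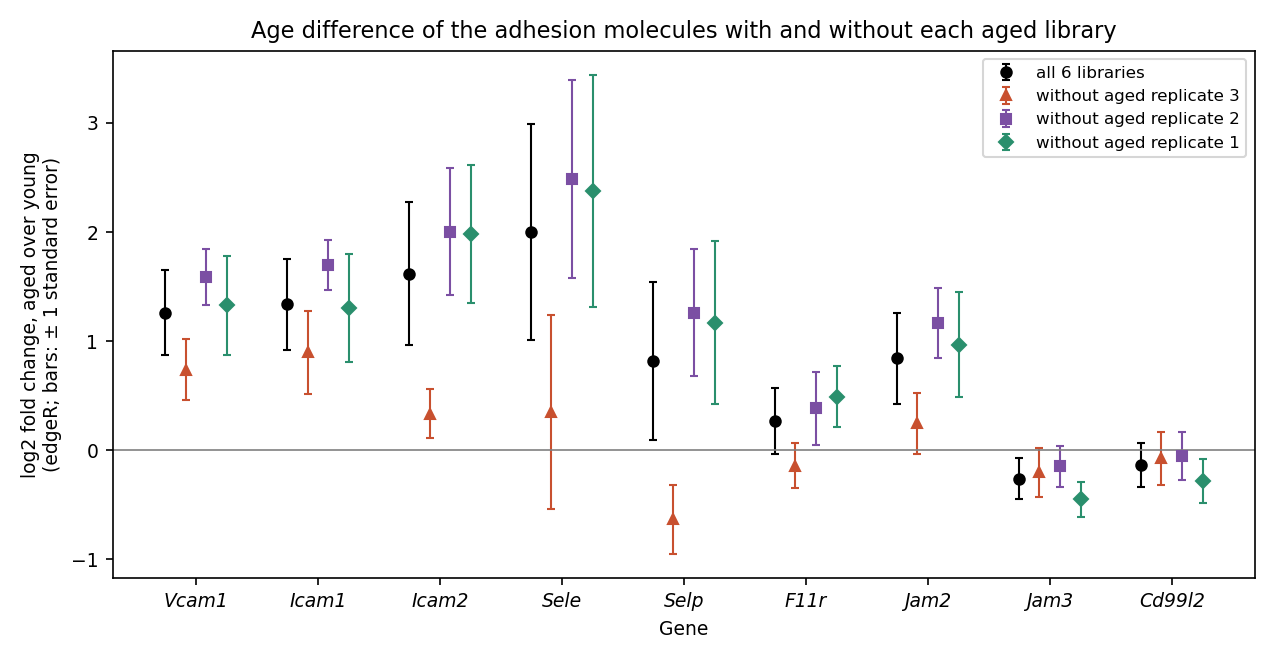
Log2 fold change of aged over young for each tested member from edgeR, with all 6 libraries and with each aged library left out in turn. Bars show the SE of each fit, and fits without a young library are not drawn. Icam2 runs from 0.33 to 2.0, and Selp and F11r change sign without aged replicate 3.

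The leukocyte partners of these molecules, the integrins and selectin ligands they bind, are taken here as a list of their own. Of 13 counter-receptor genes, 10 were tested, with a median log2 fold change of -0.06. At an unadjusted edgeR p below 0.05, where 5.56% of all genes tested were higher and 4.82% lower, 0 were lower and 1 was higher. That gene was Itgam, the alpha chain of Mac-1 which binds ICAM-1 and JAM-C, at 1.05, 0.402 and 0.349 CPM in young and 5.05, 3.76 and 4.38 CPM in aged libraries. All 3 aged libraries were above the young ones, aged replicate 2 included, as were those of 7.74% of all genes tested. Its log2 fold change was 2.85, with an edgeR adjusted p of 0.306. Selplg, the ligand of P-selectin, had a log2 fold change of 0.98, and the most abundant genes of the list, Itgb1 and Cd44, had 0.00 and 0.44. Itgad, an integrin alpha chain, had 0, 0 and 2 counts in young and 0 in each aged library, and was untested.

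Other adhesion and junction molecules of endothelium numbered 22, of which 19 were tested, with 2 higher and 1 lower at an unadjusted edgeR p below 0.05 and a median log2 fold change of 0.64. Emcn, a sialomucin of capillaries and veins, had a log2 fold change of 1.08, and Cd34 had 1.49, at 83.6, 91.2 and 72.3 CPM in young and 300.5, 71.6 and 322.8 CPM in aged libraries. Aged replicates 1 and 3 were the high libraries for Cd34, as for Vcam1 and Icam1. Aoc3, the vascular adhesion protein VAP-1 that smooth muscle also makes, was lower in every aged library, at 274, 364 and 236 CPM against 475, 392 and 488 CPM, with a log2 fold change of -0.63. Every aged library lay below every young one for 8.78% of all genes tested. Mcam, the most abundant of the list, had -0.46, and Glycam1, a mucin of lymphoid venules, had 11, 0 and 0 counts in young and 0 in each aged library, so that 5 of 6 libraries had none, and was untested. Of 13 enzymes that build selectin ligands, 12 were tested and none was below an unadjusted edgeR p of 0.05 in either direction, with a median of -0.12. The sulfotransferase Tpst2 and the galactosyltransferase B4galt1 had its smallest p, with log2 fold changes of 0.33 and 0.29, and the abundant Tpst1 had -0.18.

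Of 25 genes known to regulate transcription of adhesion molecules, 23 were tested, with 4 higher and 1 lower at an unadjusted edgeR p below 0.05 and a median log2 fold change of 0.26. Nfkbia, the NF-kappa B inhibitor that is itself an NF-kappa B target, was at 27.3, 44.2 and 44.0 CPM in young and 48.4, 100.2 and 108.5 CPM in aged libraries, with a log2 fold change of 1.16. All aged libraries of Nfkbia stood above all young ones, as did 7.74% of all genes tested, with aged replicate 1 close to the young range. Its order among aged libraries was not that of Vcam1 and Icam1, since aged replicate 1 and not aged replicate 2 was the lowest. Atf3, a stress-induced repressor, was lower in every aged library, at 33.8, 19.7 and 7.74 CPM against 69.2, 50.1 and 91.9 CPM, with a log2 fold change of -1.79. That order was shown by 8.78% of all genes tested. Klf4, Il1b and Nos3 were the others on the higher side, with 0.71, 2.30 and 1.51. The Il1b value is near the lowest measurable level and rests on 4, 2 and 11 counts in young and 14, 17 and 40 counts in aged replicates 1, 2 and 3. Nos3, the endothelial nitric oxide synthase, was at 28.5, 37.4 and 151 CPM in aged libraries against 24.8 to 25.7 CPM in young. Among the abundant Jun and Fos the log2 fold changes were 0.15 and -0.33. The cytokine genes Tnf and Il1a were at or near 0 in both groups and untested: Tnf had 8, 0 and 0 counts in young and 0 in each aged library, and Il1a had 0 in each young library and 0, 2 and 0 in aged.

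Of 14 cytoskeletal partners that anchor adhesion molecules, all tested, 0 were higher and 3 lower at an unadjusted edgeR p below 0.05. Over all genes tested, 5.56% were higher and 4.82% lower at that threshold. The median log2 fold change of the list was -0.12. Filamin A (Flna), the most abundant, had a log2 fold change of -0.59, caveolin 1 (Cav1) had -0.67 and vinculin (Vcl) had -0.75. Each had every aged library below every young one, as did 8.78% of all genes tested. Cttn of the same list also had that order, with a log2 fold change of only -0.12. Flna, Cav1 and Vcl are genes that smooth muscle expresses at high levels too. Of 8 smooth muscle markers, 4 were lower at an unadjusted edgeR p below 0.05, and the part of smooth muscle in these values was not tested. Actn1, the next most abundant, had -0.21.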

How the data were processed

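RNA was isolated from the aorta of 3 young and 3 aged mice, and libraries were prepared with a SMARTer mRNA kit. The authors deposited a table of raw read counts per gene and a table of FPKM for the same 6 libraries, per the labels on build mm10. The aligner, counter, annotation and strand setting are not given in the sources used here. The count table was tested with edgeR 4.0.16 (R 4.3.3): genes were kept by filterByExpr (count minimum 10, total minimum 15), scaled by TMM and tested by the quasi-likelihood F test, all 6 libraries in the fit, with Benjamini-Hochberg adjustment over all genes tested. SE is the absolute log2 fold change divided by the square root of F. Log2 ratios used a prior count of 0.5 and an exact two-sided permutation test. A symbol on several rows was represented by the row whose identifier GENCODE M21 gives that symbol, as for Itgam. Alternatives were DESeq2 1.42.0, limma 3.58.1 on log2(FPKM + 1) and log2(FPKM + 0.1), other scalings and filters, a replicate block and each library left out.

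Members and gene lists were chosen with earlier results of these data known. Named genes were all 10 members, of each list the 2 with smallest p and the 2 most abundant, and genes at 0 counts in a whole group. Cd34, Klf4, Il1b, Nos3, Vcl, Cttn, Lyve1, Pdpn, Krt18, Erg, Col1a1, Col1a2 and the markers beside a member were named to complete a count or a comparison, after values were seen. Scripts were tested on simulated data. The labels number the libraries of each age as repeats, name no mouse and give no batch. The methods of the study describe vessels collected from each mouse, and the libraries were taken as separate mice. Same-numbered young and aged libraries had correlated deviations of 0.072, 0.108 and 0.082, against -0.119 to 0.050 for libraries of unlike number. These low values do not settle whether the numbers are pairs. The main fit did not treat them as pairs, and a fit with the replicate block is given below.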

Additional observations from a re-analysis of the deposited data

How the results depend on the processing

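No member was called in edgeR with all 6 libraries, with RLE size factors, without a filter on low counts, with a robust fit, or by DESeq2 or limma. The count of genes called was 338 with DESeq2 and 0 to 110 with 1 library left out, 110 being without aged replicate 2, and the count of members called was 0 to 1. Members higher at an unadjusted p below 0.05 numbered 5 with DESeq2, 0 with limma at either pseudocount (with 1 member, Jam3, lower), 5 in a fit of 2 against 2 libraries without young replicate 1 and aged replicate 2 (added after the data were seen), and 1 to 5 with 1 library left out, 1 without aged replicate 3 and 5 without aged replicate 2. Members lower numbered 0 to 1 with 1 library left out, the 1 being Jam3 without aged replicate 1. Members with all aged ratios to endothelial markers above the young numbered 2 with the median of the markers, 0 with fibroblast markers and 1 to 5 with 1 library left out. F11r turned to -0.020 and -0.027 with limma, where the median of all genes moved from 0.02 to -0.12 and -0.19, and ran from -0.14 without aged replicate 3 to 0.49 without aged replicate 1. Selp ran from -0.63 without aged replicate 3 to 1.26 without aged replicate 2. Cd99l2 turned to 0.068 in the 2 against 2 fit. The cause was not tested. With the replicate block 0 genes were called, and members higher at an unadjusted p below 0.05 numbered 2, Vcam1 at 1.10 and Icam1 at 1.17. Icam2 was the member lost, at 1.11 (edgeR p 0.0878), and Sele was at 1.31 and Selp at 0.18. The pairing by number is uncertain: in the correlations of deviations each young library was closest to the aged library of its own number, as a hint from the data only. Sele could not be fitted under the filter of 10 counts in every library. Depth limits what can be said of Sele and Madcam1.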
